A study of Mus musculus with 14 samples.

Results

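CA3 tissue was compared with dentate gyrus (DG) tissue of the mouse hippocampus across all genes, using the directly homogenised control samples and no enzyme-treated sample. The comparison holds 4 of the series' 14 libraries, chosen by their labels: CA3 control replicates 1 and 4, against DG control replicates 2 and 3. All came from wild-type C57BL/6 tissue. A single mouse, job number and date stand against every library in the deposited sample sheet. A p-value here therefore covers variation among pieces of tissue from 1 animal and says nothing of variation among animals. The study as a whole set enzymatic dissociation against homogenisation in CA1, CA3 and DG, which was not analysed here. The 3 CA1 control libraries entered the fit to share the estimate of the spread, and their levels are given where they help to place a gene.

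The hippocampus passes signals through a chain of regions. Granule cells of the DG receive cortical input and send mossy fibres, axons with large zinc-rich terminals, to the pyramidal cells of CA3, which project in turn to CA1. CA2 is a narrow field between CA3 and CA1, and the hilus inside the DG blades holds mossy cells and many inhibitory interneurons. Granule cells are marked by the homeobox factor Prox1 and the secreted synaptic protein C1ql2, and CA1 pyramidal cells by Fibcd1, Wfs1 and Pou3f1. Each sample is bulk tissue, so fewer cells of a type and less RNA per cell cannot be told apart in any value below.

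The libraries held 1974845 and 2352153 estimated counts in CA3 (replicates 1 and 4), against 1285654 and 6086605 in DG (replicates 2 and 3), so DG replicate 2 was the shallowest and gives the widest counting error. A count of 0 allows up to 1.519 and 1.275 CPM (counts scaled to a common library total) in the CA3 libraries and up to 2.333 and 0.493 CPM in the DG libraries, counting error only and before scaling. Mitochondrially encoded genes took 4.57% and 7.07% of counts in CA3, against 7.06% and 6.14% in DG.

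The region markers did not separate the 4 libraries the way their labels do, and this precedes every result. The summed level of 9 CA1 pyramidal markers was 2522 and 985 CPM in CA3 replicates 1 and 4, against 131 and 92.2 CPM in DG replicates 2 and 3, with 3125 to 3445 CPM in CA1 tissue. The sum in the library labelled CA3 replicate 1 was therefore below CA1 tissue but closer to it than to CA3 replicate 4. Single markers differed there. Fibcd1 and Mpped1 lay above the CA1 libraries, Pou3f1 and Spink8 within their range, and Wfs1, Nov, Gpr161 and Man1a below it. Wfs1 had 183 CPM in CA3 replicate 1, against 562 to 995 CPM in CA1. CA3 replicate 1 also held less of the CA3 markers Grik4 and Bok than CA3 replicate 4. Grik4, a kainate receptor subunit, had 23.5 and 127 CPM in CA3 replicates 1 and 4, against 101 and 69.3 CPM in DG replicates 2 and 3. Bok, a Bcl-2 family member used as a CA3 marker, had 19.5 and 135 CPM in CA3, against 212 and 13.1 CPM in DG. For both genes the low CA3 library was replicate 1, and the groups overlapped.

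The library labelled DG replicate 2 carried granule markers together with those of neighbouring cells. The summed level of 22 granule cell markers was 514 and 409 CPM in CA3 replicates 1 and 4, against 1677 and 5135 CPM in DG replicates 2 and 3. The hilar mossy cell marker Calb2 (calretinin) had 3.50 and 1.69 CPM in CA3, against 69.5 and 0.777 CPM in DG. Neurod6, a transcription factor of pyramidal cells, had 211 and 259 CPM in CA3, against 179 and 1.24 CPM in DG. DG replicate 2 thus stood close to the CA3 libraries for Neurod6, and DG replicate 3 had almost none of it. The library labelled CA3 replicate 4 held CA2 markers as well: Amigo2, an adhesion molecule of CA2 cells, had 6.49 and 93.0 CPM in CA3, against 11.1 and 14.9 CPM in DG. Rgs14, a regulator of G-protein signalling enriched in CA2, had 138 and 370.5 CPM in CA3, against 37.7 and 87.7 CPM in DG. Across genes, log2 CPM of CA3 replicate 1 correlated at 0.919 to 0.941 with the CA1 libraries and at 0.906 with CA3 replicate 4. DG replicate 2 correlated at 0.886 with CA3 replicate 4 and at 0.861 with DG replicate 3. These correlations are across genes, which are not independent replicates, and libraries differ in depth. "CA3" and "DG" below mean the libraries labelled so, and counts or medians are given with and without CA3 replicate 1 and DG replicate 2.

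**Figure D1:**
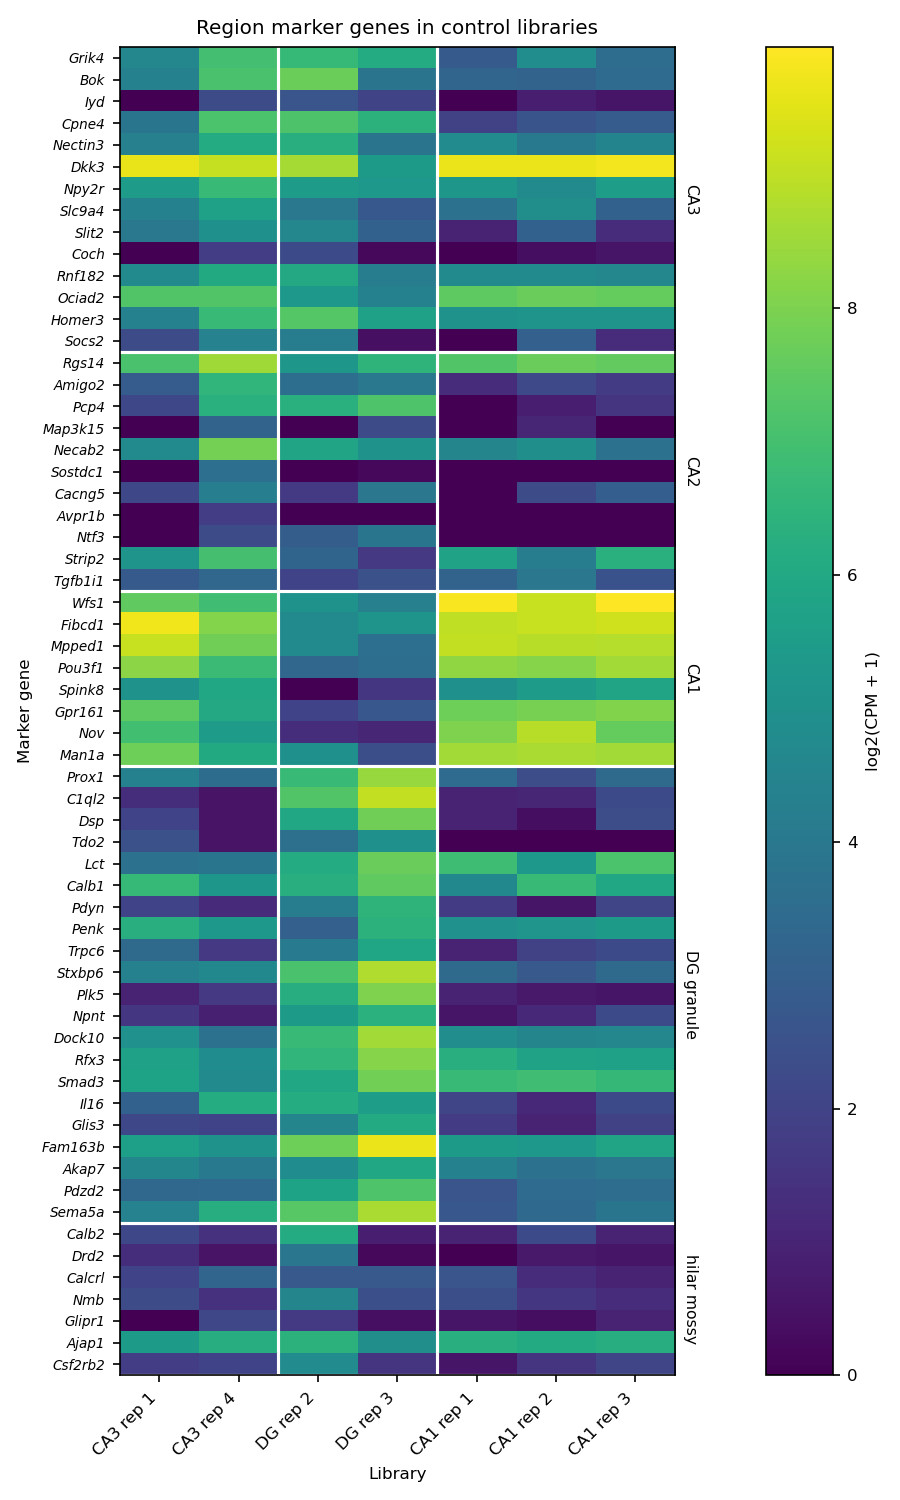
Level of region marker genes in each control library, as log2(CPM + 1) (colour), with genes in rows by marker list and libraries in columns, CA3 first, then DG, then CA1. CA1 markers are bright in CA3 rep 1 (summed 2522 CPM) and dim in both DG libraries, and CA3 markers such as Bok are bright in CA3 rep 4 and DG rep 2.

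Of 12292 genes tested, 77 (0.626%) were higher and 55 (0.447%) lower in CA3 than in DG (edgeR quasi-likelihood test, Benjamini-Hochberg adjusted p under 0.05), and 1448 genes had an unadjusted p under 0.05. The log2 fold changes of called genes ranged from 1.23 upward for higher genes and from -1.45 downward for lower ones, beside a median of 0.02 over all tested genes. In all 132 called genes the CA3 and DG libraries did not overlap. Among all tested genes, both CA3 libraries lay above both DG libraries in 18.7% and below them in 17.5%. Of the 77 higher genes, 57 (74.0%) had more in CA3 replicate 1 than in CA3 replicate 4, against 51.6% of all tested genes. Of the 55 lower genes, 48 (87.3%) had more in DG replicate 3 than in DG replicate 2, also against 51.6%.

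The counts depended strongly on the libraries used. Without DG replicate 2 the calls numbered 469 higher (3.64%) and 273 lower (2.12%), and without CA3 replicate 1 they numbered 31 higher (0.238%) and 13 lower (0.09996%). Without CA3 replicate 4 the shares were 0.646% higher and 0.146% lower, and without DG replicate 3 they were 0.287% and 0.178%. Leaving out CA1 replicate 1, 2 or 3 gave 0.336%, 0.483% and 0.384% higher and 0.263%, 0.360% and 0.270% lower. Without both CA3 replicate 1 and DG replicate 2, 786 (6.14%) were higher and 632 (4.94%) lower, in a fit where each region has 1 library that is assumed to vary like the CA1 libraries. All 132 genes kept their direction there, which their lack of overlap between regions all but fixed in advance. DESeq2, on the same 7 libraries, called 1.85% higher and 1.46% lower. Of 56 called genes chosen by rule, the fold change moved by over 1.5 times in 34 without DG replicate 3, 14 without DG replicate 2, 16 without CA3 replicate 1, 11 without CA3 replicate 4 and 0 without any 1 CA1 library. On the 4 libraries alone, 25 were higher (0.211%) and 29 lower (0.244%), and 54 of the 132 were among the genes called.

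**Figure D2:**
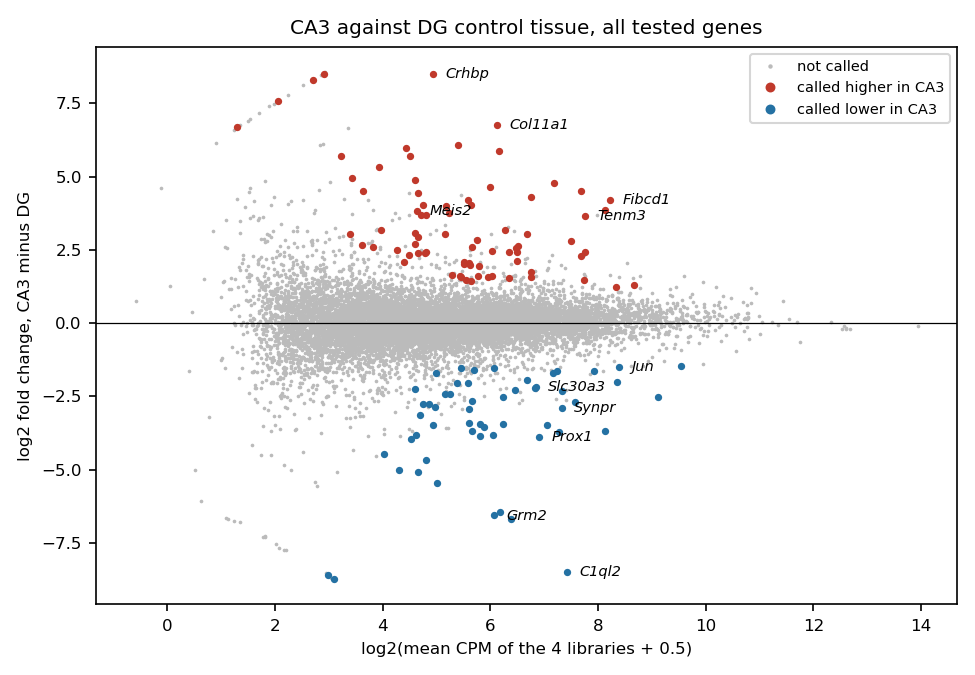
Log2 fold change, CA3 minus DG (vertical axis), against log2 of the mean CPM of the 4 libraries plus 0.5 (horizontal axis), 1 point per tested gene. Red points are the 77 genes called higher in CA3 and blue points the 55 called lower, and C1ql2 lies at -8.49.

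The genes lower in CA3 included many granule cell markers. Of 22 granule cell markers, all tested, 13 were lower in CA3 and 0 higher, and their median log2 fold change was -3.47, beside 0.02 for all tested genes. This list marks the DG by definition and so checks the dissection. C1ql2 (chromosome 1, 120340582 to 120343174, forward strand, GENCODE M21 on GRCm38) encodes a C1q-like protein that mossy fibre terminals secrete and that gathers kainate receptors at the synapse. It had 1.50 and 0.423 CPM in CA3 replicates 1 and 4, against 153 and 532 CPM in DG replicates 2 and 3. Both CA3 libraries were close to 0 and both DG libraries far above them, with a log2 fold change of -8.49 ± 0.85 (SE; edgeR adjusted p = 0.00233). Prox1 (chromosome 1, 190118035 to 190170714, reverse strand), the homeobox factor that sets granule cell identity, had 19.98 and 10.6 CPM in CA3, against 106 and 341 CPM in DG. The groups did not overlap, and the fold change was -3.89 ± 0.60 on the log2 scale (edgeR adjusted p = 0.0124).

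Plk5 and Dsp showed the same order of libraries, with DG replicate 3 the highest. Plk5, a polo-like kinase family member of the brain, had 0.999 and 2.11 CPM in CA3, against 72.5 and 258 CPM in DG, a log2 fold change of -6.68 ± 0.70 (edgeR adjusted p = 0.00233). Dsp, which encodes the junction protein desmoplakin, had 3.00 and 0.423 CPM in CA3, against 60.6 and 223 CPM in DG (log2 fold change -6.44 ± 0.98, edgeR adjusted p = 0.0117). Other called markers included Lct, Pdyn, Stxbp6, Npnt, Dock10, Glis3, Fam163b and Pdzd2. Calb1, the calcium buffer calbindin, overlapped between regions, at 101 and 37.6 CPM in CA3 and 74.0 and 186 CPM in DG. Penk, the enkephalin precursor, overlapped too, at 77.4 and 38.9 CPM in CA3 and 7.40 and 82.7 CPM in DG.

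C1ql2 and Plk5 were called in all 7 fits that each left out 1 control library. The calls of Prox1, Dsp and the other called markers just named ended without either one of the CA3 libraries, and all of these but Stxbp6 and Fam163b also lost theirs without DG replicate 3. The number of markers called was 3 without CA3 replicate 1, 4 without CA3 replicate 4, 18 without DG replicate 2 and 5 without DG replicate 3. Without both CA3 replicate 1 and DG replicate 2, the median of the 22 markers was -4.55. The log2 fold changes without DG replicate 3 were -7.30 for C1ql2, -5.46 for Plk5, -5.16 for Dsp and -2.79 for Prox1. Those without DG replicate 2 were -9.12 for C1ql2, -7.31 for Plk5, -7.07 for Dsp and -4.49 for Prox1. Leaving out CA3 replicate 1 gave -9.55 for C1ql2 and -8.29 for Dsp, and leaving out CA3 replicate 4 gave -7.81 for C1ql2, -7.34 for Plk5 and -5.57 for Dsp. Measured per transcript length, C1ql2 and Fam163b were at similar levels in DG, at 162 and 611 TPM (transcripts scaled for length and library total) for C1ql2 and 151 and 616 TPM for Fam163b.

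Among genes outside the marker list, Grm2 showed one of the largest decreases. It encodes the presynaptic metabotropic glutamate receptor that dampens release from mossy fibres. It had 1.50 and 1.27 CPM in CA3, against 35.5 and 227 CPM in DG, a log2 fold change of -6.57 ± 0.97 (edgeR adjusted p = 0.0103). Il1r1, the signalling receptor for interleukin-1, had 0.499 and 1.69 CPM in CA3, against 24.4 and 50.4 CPM in DG (log2 fold change -5.02 ± 0.87, edgeR adjusted p = 0.0216). Kcnc4, a fast-inactivating potassium channel of the Kv3 family found in mossy fibre terminals, had 6.99 and 7.61 CPM in CA3, against 66.6 and 142 CPM in DG (log2 fold change -3.85 ± 0.54, edgeR adjusted p = 0.00855). In each of these genes both CA3 libraries were low and DG replicate 3 lay above DG replicate 2, with no overlap between regions. Ipcef1, Wnk4 (a kinase acting on ion transport) and Vwa3b completed the largest decreases, with log2 fold changes of -5.10, -4.46 and -3.97. Npnt, an integrin ligand of the extracellular matrix and one of the granule cell markers named above, had -5.46. Leaving out either CA3 library ended the calls of Grm2, Il1r1, Kcnc4, Ipcef1, Npnt, Wnk4 and Vwa3b, and leaving out DG replicate 3 ended those of all but Grm2. The log2 fold change of Grm2 was -4.64 without DG replicate 3 and -7.33 without DG replicate 2. Without DG replicate 3 that of Il1r1 was -4.38, Kcnc4 -3.17, Npnt -4.87 and Vwa3b -3.17. Without CA3 replicate 1 it was -6.14 for Npnt and -3.84 for Wnk4, and without CA3 replicate 4 it was -6.15 for Il1r1 and -5.84 for Wnk4.

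A pair of genes had no count in either CA3 library. Arsj, a sulfatase family gene, had 0 and 0 CPM in CA3, against 17.7 and 12.1 CPM in DG, and was at 0 to 0.154 CPM in CA1. Set against 3 counts over the pooled CA3 libraries, it was at least 19.1-fold lower in CA3 (edgeR adjusted p = 0.0380). That call held in 1 of the 7 fits that left out a library. Gm7334 had 0 and 0 CPM in CA3, against 13.3 and 18.7 CPM in DG, at least 25.8-fold lower in CA3 (edgeR adjusted p = 0.0342). It is annotated as a processed pseudogene in GENCODE M21, so its counts may be shared with a similar transcript and are uncertain. Its call ended without CA1 replicate 1, either CA3 library or DG replicate 3.

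**Figure D3:**
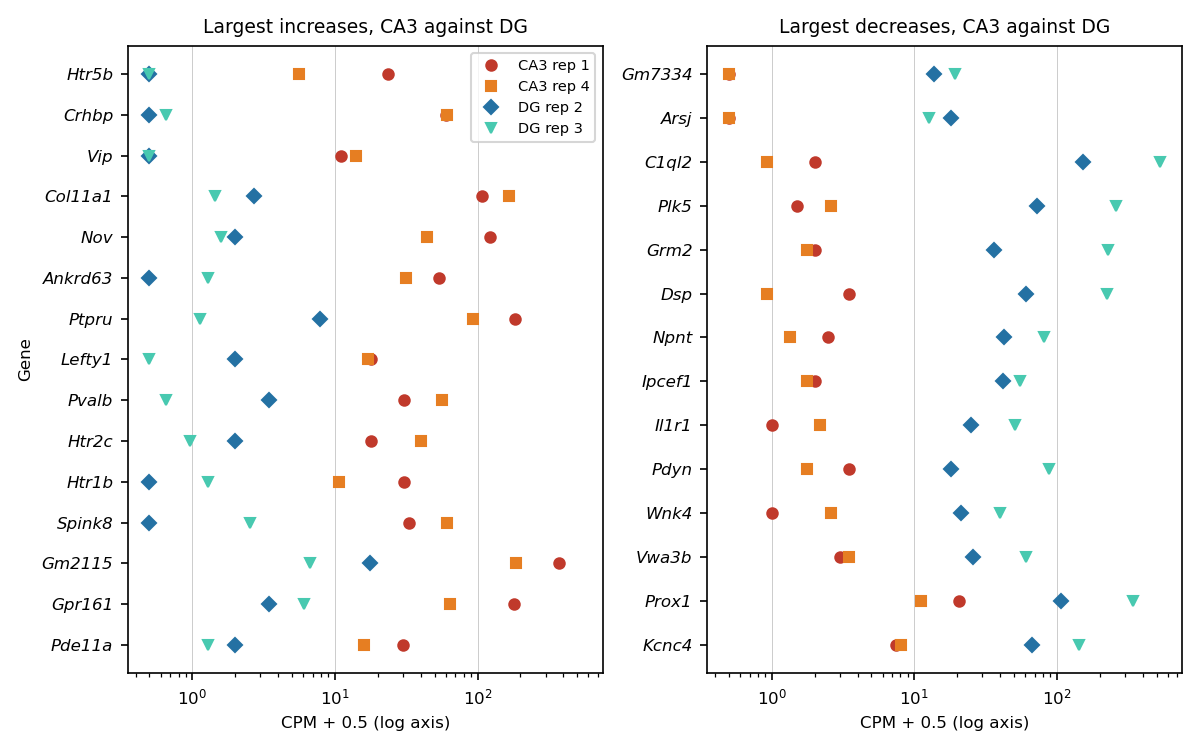
CPM + 0.5 on a log axis in each CA3 and DG library for the genes with the largest increases (left) and the largest decreases (right) in CA3 among those named by rule. The CA3 points lie apart from the DG points in every row, for example at 107 and 166 CPM against 2.22 and 0.933 CPM for Col11a1.

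Genes of the mossy fibre terminal were partly lower in CA3. Of 18 tested genes for transmitter release and peptides, 4 were lower and 0 higher (Slc30a3, Pdyn, Synpr and Nptx1), with a median log2 fold change of -0.93. Slc30a3, which loads zinc into synaptic vesicles, had 45.5 and 37.6 CPM in CA3, against 160.5 and 214 CPM in DG (log2 fold change -2.18 ± 0.27, edgeR adjusted p = 0.00401). Synpr, the vesicle protein synaptoporin, had 43.5 and 32.1 CPM in CA3, against 248 and 317 CPM in DG (log2 fold change -2.91 ± 0.28, edgeR adjusted p = 0.00233). Both held in all 7 fits that left out a library, and both DG libraries stood close together, unlike most granule genes. Nptx1, a pentraxin that clusters AMPA receptors, had 336 and 458 CPM in CA3, against 1136 and 1033 CPM in DG (log2 fold change -1.45 ± 0.24, edgeR adjusted p = 0.0194). Pdyn, the dynorphin precursor, had 3.00 and 1.27 CPM in CA3, against 17.7 and 87.5 CPM in DG (log2 fold change -4.67 ± 0.93, edgeR adjusted p = 0.0448). The Pdyn call held in 2 of the 7 such fits, with log2 fold changes of -3.04 without DG replicate 3, -5.37 without DG replicate 2 and -5.38 without CA3 replicate 1, and that of Nptx1 ended without CA3 replicate 1 and without CA1 replicate 1 or 3. In the fit without CA3 replicate 1 and DG replicate 2, the median of the 18 genes was -1.14. Bdnf, the neurotrophin stored in mossy fibres, had 33.0 and 61.7 CPM in CA3 and 72.5 and 192 CPM in DG, without passing the test (edgeR adjusted p = 0.156). Slc17a7, the vesicular glutamate transporter of all these principal cells, overlapped at 1654 and 2759 CPM in CA3 and 2411 and 1295 CPM in DG.

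Of 22 tested adhesion molecules and receptors of the mossy fibre synapse, 3 were lower in CA3 and 0 higher, with a median of 0.10. Besides C1ql2 these were Gpc4, a surface glypican, with 15.5 and 12.3 CPM in CA3 against 48.1 and 123 CPM in DG (log2 fold change -2.65 ± 0.43, edgeR adjusted p = 0.0168). The cell adhesion gene Cdh9, a cadherin of DG and CA3 neurons, had 12.5 and 9.73 CPM in CA3, against 48.8 and 69.6 CPM in DG, with 1.40 to 2.79 CPM in CA1 (log2 fold change -2.43 ± 0.41, edgeR adjusted p = 0.0198). The calls of Gpc4 and Cdh9 ended without either one of the CA3 libraries and without DG replicate 3, where the log2 fold change of Gpc4 was -1.79. In 13 of the 24 listed genes the regions did not overlap. CA3 lay above in 6 and below in 7, beside 18.7% and 17.5% of all tested genes. Nectin3 and Neto1 were among the listed genes that overlapped. Nectin3, an adhesion molecule, had 19.0 and 69.8 CPM in CA3 and 76.9 and 13.2 CPM in DG, and Neto1, a kainate receptor auxiliary subunit, 48.9 and 86.3 CPM in CA3 and 108 and 75.4 CPM in DG. Gpr158, an orphan receptor that binds glypicans, had 133 and 114 CPM in CA3 and 96.9 and 53.3 CPM in DG and did not pass the test (edgeR adjusted p = 0.350). Leaving out CA3 replicate 1 and DG replicate 2 gave a median of 0.20 over the 22 genes.

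Markers of CA1 were among the genes higher in CA3. Of 9 tested CA1 pyramidal markers 8 were higher in CA3 and 0 lower, and the median was 4.44. Fibcd1 (chromosome 2) encodes a membrane receptor for acetylated sugars and is used as a CA1 marker. It had 853 and 276 CPM in CA3 replicates 1 and 4, against 25.9 and 34.8 CPM in DG, and 519 to 609 CPM in CA1. CA3 replicate 1 lay above the CA1 libraries, CA3 replicate 4 below them, and both far above DG (log2 fold change 4.19 ± 0.48, edgeR adjusted p = 0.00334). Pou3f1, a POU-domain factor, had 303 and 109.5 CPM in CA3, against 8.87 and 11.2 CPM in DG, with 282 to 384 CPM in CA1 (log2 fold change 4.31 ± 0.48, edgeR adjusted p = 0.00291). Wfs1, an endoplasmic reticulum protein, had 183 and 120.1 CPM in CA3, against 34.0 and 19.1 CPM in DG, and 562 to 995 CPM in CA1 (log2 fold change 2.57 ± 0.39, edgeR adjusted p = 0.0121). Mpped1, Spink8, Gpr161 and Nov were other called markers, with log2 fold changes from 4.50 to 6.08. Without CA3 replicate 1 the median was 3.53 and 7 of the 9 were called, the call of Wfs1 having ended, and the log2 fold changes were 3.16 for Fibcd1, 3.40 for Pou3f1, 3.69 for Mpped1, 3.71 for Gpr161 and 5.18 for Nov. That of Fibcd1 was 4.78 without CA3 replicate 4. Without both CA3 replicate 1 and DG replicate 2 all 9 were higher, so CA3 replicate 4 held these markers above DG replicate 3 as well. What part CA1 or CA2 tissue in the CA3 samples has in these values was not tested.

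The promoters of C1ql2 and Fibcd1 are shown because these genes are a granule cell marker and a CA1 marker that is high in CA3 here. Each sequence is the stretch of 250 bases before the start of the gene, 5′ to 3′ on the gene's strand, from RefSeq on GRCm38.p6. C1ql2 is at chr1:120340332-120340581 on the forward strand and Fibcd1 at chr2:31846006-31846255 on the reverse strand. Capitals mark a TGACAG letter match, the core bound by MEIS factors.
C1ql2: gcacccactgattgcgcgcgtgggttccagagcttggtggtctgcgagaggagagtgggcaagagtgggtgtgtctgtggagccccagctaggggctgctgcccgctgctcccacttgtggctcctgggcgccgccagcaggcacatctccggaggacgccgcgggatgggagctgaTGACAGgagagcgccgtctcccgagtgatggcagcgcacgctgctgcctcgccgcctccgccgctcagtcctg
Fibcd1: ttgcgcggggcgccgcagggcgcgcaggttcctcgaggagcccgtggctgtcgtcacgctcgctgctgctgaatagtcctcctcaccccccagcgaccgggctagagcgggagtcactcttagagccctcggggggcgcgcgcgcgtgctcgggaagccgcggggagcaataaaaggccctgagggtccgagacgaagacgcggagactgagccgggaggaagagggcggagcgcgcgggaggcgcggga
The C1ql2 stretch is 68.8% G and C and the Fibcd1 stretch 71.6%.

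Markers of CA3 itself did not separate the groups. Of 12 tested CA3 pyramidal markers 1 was higher in CA3 (Ociad2) and 0 lower, and the median log2 fold change was 0.43. Ociad2, which encodes a protein of endosomes and mitochondria, had 150.3 and 150.1 CPM in CA3, against 38.5 and 19.7 CPM in DG (log2 fold change 2.43 ± 0.32, edgeR adjusted p = 0.00661). It had 178 to 202 CPM in CA1, so CA1 tissue held at least as much of it. Cpne4, a calcium-dependent membrane-binding protein, had 13.5 and 140.4 CPM in CA3, against 143 and 83.8 CPM in DG. Dkk3, a secreted protein of the dickkopf family, had 783 and 536 CPM in CA3, against 395 and 41.5 CPM in DG, and did not pass the test (edgeR adjusted p = 0.403). Of 8 tested CA2 markers none passed the test, and their median was 1.27 (edgeR; the smallest adjusted p was 0.0552, for Strip2, 3 had an unadjusted p under 0.05, and DESeq2 called 2). Strip2 had 35.0 and 129 CPM in CA3, against 8.14 and 2.18 CPM in DG.

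The CA3 list moved with the choice of libraries. CA3 replicate 1 and DG replicate 2 were left out after seeing these same markers, so a rise of this list follows in part from that choice. In the fit without them, where only the CA1 libraries give the spread, the median of the 12 CA3 markers was 2.20. Bok had a log2 fold change of 3.36 there, against -0.48 with all libraries, and Socs2, a suppressor of cytokine signalling, 5.88 against 0.69. Cpne4 had 0.74 there, against -0.53, and Grik4 0.86, against -0.16. The 10 CA2 markers tested there had a median of 1.55. Leaving out CA3 replicate 4 instead gave a CA3-list median of -0.97, and leaving out DG replicate 3 one of -0.46, each over 13 tested members. The direction of the median thus moved with the libraries that stood for each region, over sets of tested members that were not all the same.

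**Figure D4:**
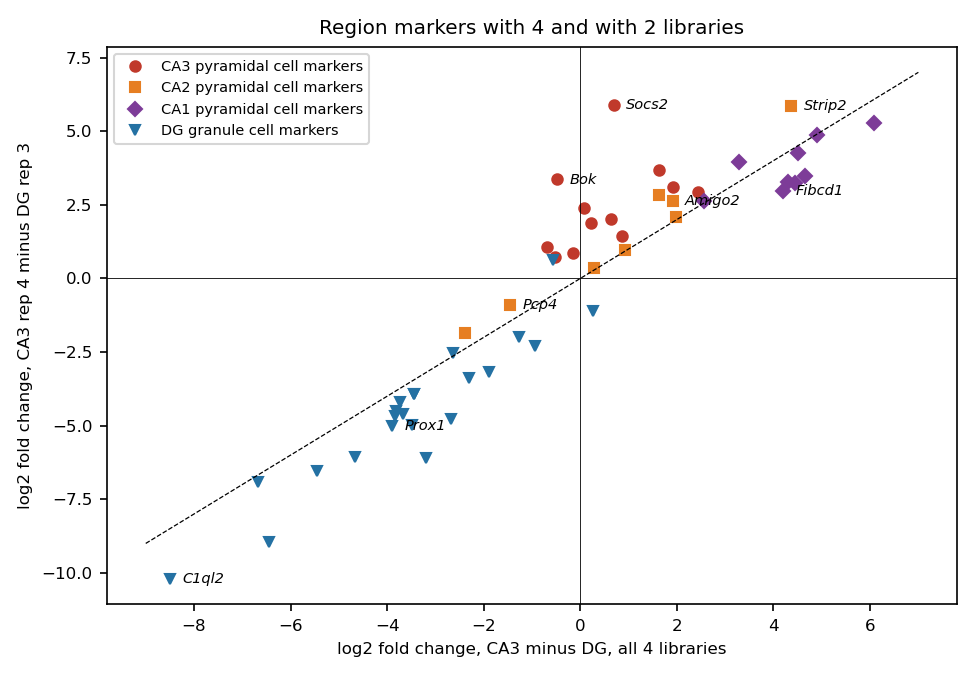
Log2 fold change of region markers with CA3 rep 4 and DG rep 3 as the libraries of CA3 and DG (vertical axis) against that with all 4 (horizontal axis), 1 point per gene, and the dashed line marks equal values. The 12 CA3 markers lie above the line (Bok at 3.36 against -0.48), all CA1 markers stay above 0, and among granule cell markers Penk and Il16 cross 0.

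Outside the region marker lists, the largest increases in CA3 included genes for matrix and secreted proteins. Col11a1 (chromosome 3, 114030540 to 114220718, forward strand) encodes a chain of fibrillar type XI collagen. It had 107 and 166 CPM in CA3, against 2.22 and 0.933 CPM in DG, a log2 fold change of 6.76 ± 0.68 (edgeR adjusted p = 0.00233). Both CA3 libraries also lay above the 30.5 to 92.0 CPM of CA1, and the call held in all 7 fits that left out a library, with a log2 fold change of 5.92 without DG replicate 3. Crhbp (chromosome 13, 95431371 to 95444924, reverse strand) encodes the binding protein that sequesters corticotropin-releasing hormone. It had 59.4 and 60.5 CPM in CA3, against 0 and 0.155 CPM in DG, where it had 1 count in all. The ratio of pooled CPM was 467 with a 95% exact Poisson interval of 83.8 to 18449.9, which covers the counting error of the DG count only (edgeR adjusted p = 0.00369). The call ended without DG replicate 3, which holds that count.

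Ptpru, a receptor tyrosine phosphatase, had 182 and 93.0 CPM in CA3, against 7.40 and 0.622 CPM in DG (log2 fold change 5.87 ± 0.75, edgeR adjusted p = 0.00562). Ankrd63, an ankyrin repeat gene, had 52.9 and 30.9 CPM in CA3, against 0 and 0.777 CPM in DG (log2 fold change 5.99 ± 0.56, edgeR adjusted p = 0.00233). Lefty1, an inhibitor of Nodal signalling, had 17.5 and 16.5 CPM in CA3, against 1.48 and 0 CPM in DG, where it had 2 counts in all. Its ratio was 66.0 (95% exact Poisson interval 18.3 to 545; edgeR adjusted p = 0.0122). In CA1 tissue Ptpru had 204 to 221 CPM, Ankrd63 72.0 to 95.5 CPM and Lefty1 37.0 to 61.0 CPM, so CA3 was not the region with the most. Gm2115 and Pde11a, a phosphodiesterase of both cyclic AMP and cyclic GMP, completed the largest increases at log2 fold changes of 4.78 and 4.50. The calls of Lefty1 and Pde11a ended without CA3 replicate 1 and without DG replicate 3, and those of Ptpru, Ankrd63 and Gm2115 held in all 7 fits. The log2 fold change of Ptpru was 7.71 without DG replicate 2 and 4.21 without DG replicate 3, and that of Gm2115 was 5.48 without DG replicate 2 and 4.04 without DG replicate 3. That of Pde11a was 3.89 without DG replicate 3. Ankrd63 without DG replicate 3, and Lefty1 without DG replicate 2, are set against a single DG library at 0, so no fold is given there. Both CA3 libraries lay above both DG libraries in 2296 of all tested genes, and in 574 of these also above every CA1 library. The 77 higher genes all lay above DG in this way, and 10 of them also lay above every CA1 library, a smaller share. These 10, picked after their values were seen, were Ank1, Col11a1, Crhbp, Efcab6, Fn1, Phf1, Pvalb, Rapgef4, Serpina3n and Tenm3. The calls of Phf1, Rapgef4 and Serpina3n held in at most 2 of the 7 fits that left out a library.

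A group of 4 serotonin receptor genes was higher in CA3. Of 39 tested receptors for monoamines, acetylcholine and neuropeptides, 4 were higher in CA3 and 0 lower, all 4 for serotonin, and the median was 0.86. The list does not hold every such receptor: Mchr1, the receptor for melanin-concentrating hormone, is not on it and was also called higher (log2 fold change 3.19 ± 0.49, edgeR adjusted p = 0.0122). Htr2c, a Gq-coupled receptor, had 17.5 and 39.8 CPM in CA3, against 1.48 and 0.466 CPM in DG (log2 fold change 5.32 ± 0.69, edgeR adjusted p = 0.00592). Htr1b, a Gi-coupled receptor of axon terminals, had 29.97 and 10.1 CPM in CA3, against 0 and 0.777 CPM in DG (log2 fold change 4.94 ± 0.78, edgeR adjusted p = 0.0138). In both genes the DG libraries were at or near the level of single counts. Htr5b had 23.0 and 5.07 CPM in CA3, against 0 and 0 CPM in DG, at least 34.5-fold higher against 3 counts over the pooled DG libraries (edgeR adjusted p = 0.0246). Htr1a, the Gi-coupled receptor of principal cell dendrites, had 41.5 and 25.4 CPM in CA3, against 7.40 and 7.93 CPM in DG (log2 fold change 2.10 ± 0.42, edgeR adjusted p = 0.0448). In CA1 tissue these receptors had 32.5 to 53.9 CPM (Htr2c), 29.7 to 48.8 CPM (Htr1b), 11.6 to 19.4 CPM (Htr5b) and 41.6 to 74.1 CPM (Htr1a). CA3 replicate 1 was the higher CA3 library for all but Htr2c.

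Not every serotonin receptor lay that way. Htr4, a Gs-coupled receptor, had 7.49 and 11.4 CPM in CA3 and 14.1 and 26.6 CPM in DG and did not pass the test (edgeR adjusted p = 0.525). Htr2a had 19.98 and 10.1 CPM in CA3 and 22.2 and 0 CPM in DG. The D1 dopamine receptor gene Drd1 had 0.499 and 0.423 CPM in CA3 and 5.18 and 7.15 CPM in DG, without passing the test (edgeR adjusted p = 0.287). The calls of Htr1b and Htr5b ended without CA3 replicate 1 and without DG replicate 3. The log2 fold change of Htr1b was 3.98 without CA3 replicate 1 and 5.53 without CA3 replicate 4, and that of Htr2c 4.61 without CA3 replicate 4 and 4.25 without DG replicate 3. The Htr5b call also ended without CA1 replicate 1, that of Htr2c without DG replicate 3, and that of Htr1a held in 3 of the 7 fits. The median of the 39 receptor genes was 1.11 without CA3 replicate 1 and DG replicate 2.

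Interneuron genes were higher in part. Of 15 tested interneuron markers 2 were higher and 0 lower, with a median of 1.11. Pvalb, the calcium-binding protein of fast-spiking interneurons, had 29.97 and 56.2 CPM in CA3, against 2.96 and 0.155 CPM in DG (log2 fold change 5.71 ± 0.85, edgeR adjusted p = 0.0107). Vip, a peptide of interneurons that inhibit other interneurons, had 10.5 and 13.5 CPM in CA3, against 0 and 0 CPM in DG, at least 31.5-fold higher (edgeR adjusted p = 0.0263). The Vip call held in 3 of the 7 fits and ended without either one of the CA3 libraries, and the Pvalb call ended without CA3 replicate 4. The log2 fold change of Pvalb was 7.83 without DG replicate 2 and 3.86 without DG replicate 3. Sst, a peptide of hilar and other interneurons, had 259 and 176 CPM in CA3, against 209 and 3.73 CPM in DG, so DG replicate 2 was near the CA3 level and DG replicate 3 far below it. The summed markers were 1719 and 1721 CPM in CA3, against 1519.8 and 543 CPM in DG, with 878 to 1223 CPM in CA1. Without CA3 replicate 1 and DG replicate 2, the median of the 15 markers was 3.58. The share of interneurons in the samples was not measured, and its part in the values of Crhbp, Pvalb and Vip was not tested.

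Among 42 transcription factors of hippocampal neurons, all tested, 2 were higher and 2 lower, and the median was 0.04. Besides Pou3f1 and Prox1, these were Meis2 and Foxo1. Meis2, a homeobox factor of the TALE class, had 50.4 and 41.4 CPM in CA3, against 1.48 and 3.89 CPM in DG, with 79.0 to 132 CPM in CA1 (log2 fold change 3.82 ± 0.43, edgeR adjusted p = 0.00291). Foxo1, a forkhead factor under insulin signalling, had 7.99 and 14.4 CPM in CA3, against 50.3 and 119 CPM in DG (log2 fold change -2.93 ± 0.52, edgeR adjusted p = 0.0259). The call of Meis2 held in all 7 fits that left out a library, and that of Foxo1 ended without either one of the CA3 libraries and without DG replicate 3. Without DG replicate 3 the log2 fold change of Meis2 was 4.92 and that of Foxo1 -2.15. The median of the 42 factors was -0.09 without CA3 replicate 1 and DG replicate 2. Neurod1, a bHLH factor of granule cell development, had 3.00 and 7.19 CPM in CA3 and 12.6 and 35.9 CPM in DG and did not pass the test (edgeR adjusted p = 0.148). Zbtb20, which marks all hippocampal principal cells, overlapped at 744 and 365 CPM in CA3 and 475 and 941 CPM in DG.

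Letters that the called factors are known to bind were looked for, on both strands, in the 250 bases before the start of each gene with a RefSeq promoter, which covered 53 of the 77 higher genes and 44 of the 55 lower ones. None of the 5 motifs holds another within it. The MEIS core TGACAG was present in 5 (9.43%) of the higher and 12 (27.3%) of the lower genes, against 16.6% of 9469 tested genes. The octamer ATGCAAAT of POU factors was in 0 of the higher and 1 (2.27%) of the lower genes, against 1.40% of tested genes. The forkhead core TGTTTAC was in 1 (1.89%) and 0, against 2.58%. The AP-1 motif TGANTCA was in 2 (3.77%) and 2 (4.55%), against 5.10%, and the cyclic AMP response element TGACGTCA in 3 (5.66%) and 2 (4.55%), against 3.18%. In the promoters printed above, TGACAG was found in C1ql2, starting 73 bases before the gene's start, and none of the 5 was found in Fibcd1. A match is a description of letters, not of a bound site.

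Few ion channel and fast transmitter receptor genes passed the test, which in simulated data recovered 6% of genes changed by a log2 fold of 1. Of 26 glutamate receptor and auxiliary subunit genes, Grm2 alone passed the test, and the median was 0.24. The AMPA receptor gene Gria1 had 1922 and 1181 CPM in CA3 and 993 and 1130.2 CPM in DG (edgeR adjusted p = 0.482), and the NMDA receptor gene Grin2b 1530.3 and 435 CPM in CA3 and 316 and 522 CPM in DG. Of 12 tested GABA-A receptor genes 1 was higher and 1 lower, with a median of 0.31. Gabra3, the alpha-3 subunit, had 65.4 and 27.9 CPM in CA3, against 7.40 and 2.02 CPM in DG (log2 fold change 3.68 ± 0.59, edgeR adjusted p = 0.0158). Gabrd, the delta subunit of receptors that carry tonic inhibition in granule cells, had 12.5 and 11.4 CPM in CA3, against 38.5 and 87.7 CPM in DG (log2 fold change -2.43 ± 0.45, edgeR adjusted p = 0.0302). The Gabra3 call held in 4 of the 7 fits and the Gabrd call in 2. The log2 fold change of Gabra3 was 2.96 without CA3 replicate 1, 4.50 without DG replicate 2 and 2.65 without DG replicate 3, and that of Gabrd -1.68 without DG replicate 3. Of 51 potassium channel genes Kcnc4 alone passed, lower in CA3, with a median of -0.02. Of 31 tested sodium, calcium and HCN channel genes Trpc4, a cation channel of the TRP family, alone passed. It had 74.4 and 57.1 CPM in CA3, against 15.5 and 26.6 CPM in DG (log2 fold change 1.58 ± 0.32, edgeR adjusted p = 0.0454), and was called in 2 of the 7 fits. The calls without CA3 replicate 1 and DG replicate 2 were 4 higher and 3 lower for glutamate receptors, 2 and 2 for GABA-A receptors, 8 and 12 for potassium channels, and 8 and 8 for sodium, calcium and HCN channels, in a fit that called 6.14% of all genes higher and 4.94% lower.

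Of 65 tested axon guidance and adhesion genes 1 was higher (Tenm3) and 1 lower (Cdh9), with a median of 0.21. Tenm3, a teneurin that matches axons to their targets in the hippocampus, had 669 and 136 CPM in CA3, against 26.6 and 35.9 CPM in DG (log2 fold change 3.66 ± 0.69, edgeR adjusted p = 0.0336). With 25.4 to 63.6 CPM, CA1 tissue was at the DG level, and CA3 replicate 1 was several-fold above CA3 replicate 4. Without CA3 replicate 1 and DG replicate 2 its log2 fold change was 1.91, and its call ended without CA3 replicate 1, DG replicate 3 or CA1 replicate 1. It was 2.10 without CA3 replicate 1 alone and 4.39 without CA3 replicate 4. Of 39 tested calcium signalling, calcium-binding and kinase genes Pvalb was higher and Plk5 and Necab3 lower, with a median of -0.02. Necab3, a neuronal calcium-binding protein, had 3.00 and 7.19 CPM in CA3, against 40.7 and 51.0 CPM in DG (log2 fold change -3.15 ± 0.53, edgeR adjusted p = 0.0194). Of 32 tested matrix and perineuronal net genes Col11a1 was higher and Npnt lower, with a median of 0.22. The matrix genes Fn1 and Matn2 are not on that list and were also called higher, each with a log2 fold change of 2.41 ± 0.35 (edgeR adjusted p = 0.00987 for Fn1 and 0.00953 for Matn2). Without CA3 replicate 1 and DG replicate 2 the median was 0.11 for 67 guidance genes. It was -0.16 for 39 calcium and kinase genes and 0.05 for 33 matrix genes. The call of Necab3 ended without CA3 replicate 1 and without DG replicate 3, and its log2 fold change was -3.92 without CA3 replicate 4.

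Immediate early genes, which neurons switch on within minutes of activity, leaned towards DG. Of 36 tested members 1 was lower (Jun) and 0 higher, 30 had negative and 6 positive log2 fold changes, and the median was -0.67, against 6317 positive of all 12292 genes. Jun, a component of the AP-1 factor, had 212 and 140.0 CPM in CA3, against 421 and 565 CPM in DG (log2 fold change -1.49 ± 0.27, edgeR adjusted p = 0.0307), and 183 to 199.7 CPM in CA1. The call of Jun held in 1 of the 7 fits. Fos had 303 and 182 CPM in CA3 and 509.6 and 833 CPM in DG, without passing (edgeR adjusted p = 0.0666). Npas4, a factor induced by calcium entry, had 189 and 66.8 CPM in CA3 and 30.3 and 574 CPM in DG, so the DG libraries lay on either side of both CA3 libraries. The summed level of the list was 4489 and 3325 CPM in CA3, against 4063 and 8866 CPM in DG. The direction rested on DG replicate 3, and the list's median was 0.10 without that library. Without CA3 replicate 1 and DG replicate 2, the list's median was -1.41.

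**Figure D5:**
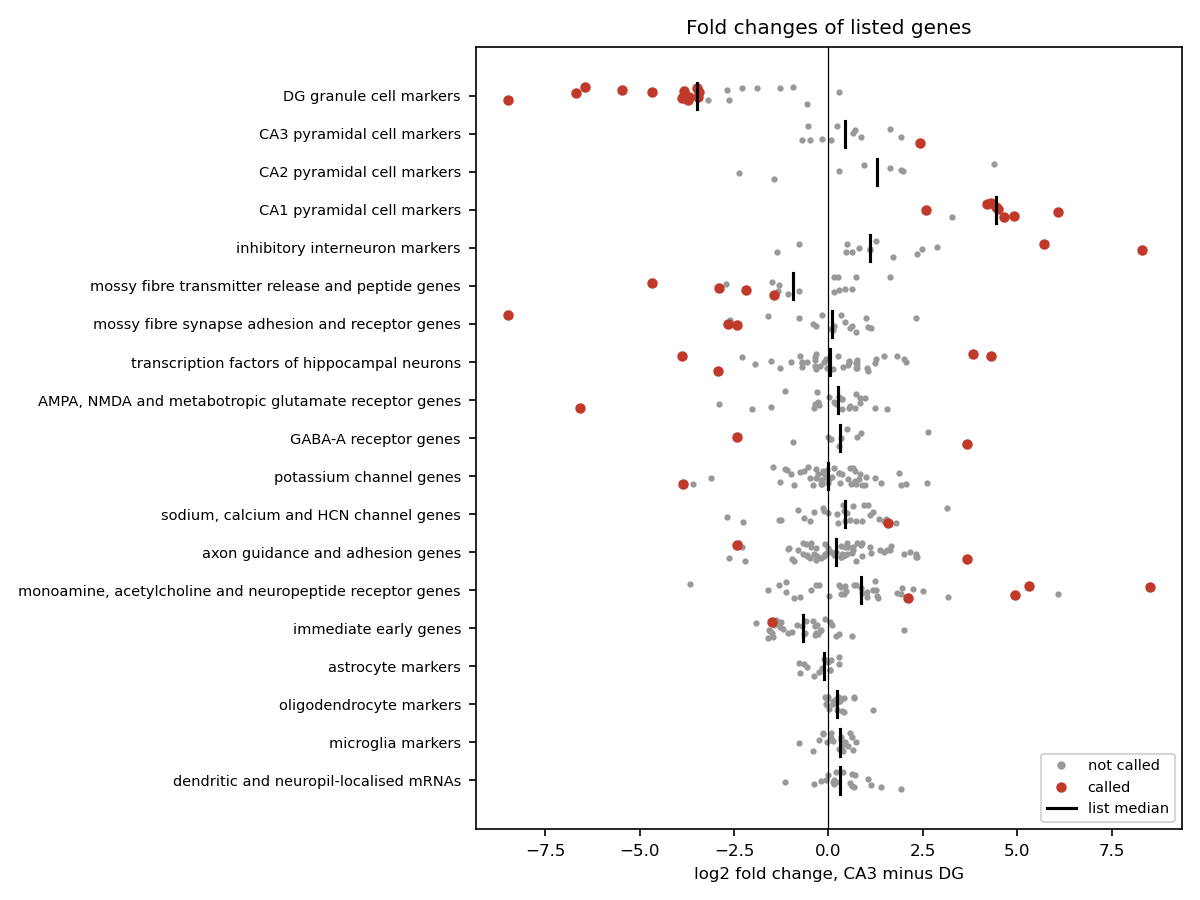
Log2 fold changes, CA3 minus DG, of the tested members of 19 gene lists, 1 point per gene, red where called, with a black bar at each list's median. Granule cell markers lie far to the left (median -3.47), CA1 markers far to the right (4.44), and glial lists close to 0.

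No glial, vascular or mitochondrial list had a called member, by edgeR in the fit of all 7 libraries. In simulated data this fit recovered 6% of genes changed by a log2 fold of 1, so genes not called may still differ. The medians were -0.11 for 15 astrocyte, 0.22 for 20 oligodendrocyte, 0.19 for 8 oligodendrocyte precursor, 0.30 for 20 microglia, 0.96 for 14 endothelial and 0.88 for 4 pericyte genes, and -0.10 for 13 mitochondrially encoded genes. Summed oligodendrocyte markers were 4170.5 and 4022 CPM in CA3, against 4615 and 2124 CPM in DG, with 894 to 1127 CPM in CA1. Of 20 mRNAs of dendrites and neuropil none passed in edgeR (6 had an unadjusted p under 0.05, and DESeq2 called 2 higher and 1 lower), with a median of 0.29. Over all tested genes, DESeq2 called 1.85% higher and 1.46% lower, and 1448 of 12292 had an unadjusted edgeR p under 0.05. DESeq2 also called none of the glial, vascular and mitochondrial genes, and at an unadjusted edgeR p under 0.05 there were 1 oligodendrocyte, 2 endothelial and 2 pericyte genes. Leaving out CA3 replicate 1 and DG replicate 2 gave medians of 0.88 for oligodendrocyte genes, 0.27 for astrocyte genes and -0.12 for dendritic mRNAs. None passed either among the tested mossy cell (3, median -0.03), Cajal-Retzius (2, median -0.05), neurogenic niche (9, median -0.59), choroid plexus and ependymal (3, median 0.87), meningeal (2, median 0.15), red blood cell (4, median 0.11) and thalamic (7, median 0.58) markers, where 1 niche, 1 choroid plexus and 1 thalamic gene had an unadjusted p under 0.05 and DESeq2 called 1 gene in each of these 3 lists. Among these, leaving out CA3 replicate 1 and DG replicate 2 gave medians of 0.51 for 3 mossy cell, -0.62 for 10 niche and -0.07 for 8 thalamic genes. They were 0.17 for 3 Cajal-Retzius, 0.02 for 3 choroid plexus, 2.27 for 3 meningeal and 0.37 for 4 red blood cell genes. Ttr, the defining choroid plexus transcript, was at 0 in all 7 control libraries. Among the 14 niche genes in the table, Neurod1, Mki67, Top2a and Stmn1 lay lower in both CA3 libraries than in both DG libraries. Nes lay the other way, at 7.99 and 24.5 CPM in CA3 and 4.44 and 6.37 CPM in DG, and Dcx, Sox4, Sox11 and Tubb3 overlapped. Of all tested genes 17.5% lay lower and 18.7% higher in this way. Mki67, a proliferation marker below the count filter, had 0 and 0 CPM in CA3, against 2.22 and 17.3 CPM in DG. Top2a, also below the filter, had 0 and 1.27 CPM in CA3, against 2.22 and 2.18 CPM in DG. In DG replicate 2 both lay within the 2.333 CPM that a count of 0 allows before scaling. Mki67 and Top2a were not tested, and none of the other niche genes just named was called.

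Transcript shares within genes varied widely between libraries of 1 region, and regional differences in them were not tested. Of 5633 genes with at least 20 CPM and more than 1 transcript, 739 had a transcript whose share of the gene's TPM differed by 30 points or more between regions without overlap. A share differed by 30 points or more between the 2 CA3 libraries in 1912 genes and between the 2 DG libraries in 1877. These counts compare single libraries, while the regional count compares means of 2 libraries and requires no overlap. The regional count is therefore held lower by its rule, and the counts cannot be set against each other directly. The largest regional difference among called or listed genes was in Fn1, the matrix protein fibronectin. Transcript ENSMUST00000188894.6 made up 72.7% and 83.0% of Fn1 in CA3 and 0% and 0% in DG, where the gene had 12 and 55 counts, with 13.9% to 64.4% in CA1. Prkcd, a protein kinase C, followed, with ENSMUST00000112210.9 at 80.01% and 75.1% in CA3 and 2.56% and 0% in DG, from 32 to 58 counts per library. Each of these shares rests on kallisto's division of reads among overlapping transcripts and was not tested.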

How the data were processed

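RNA of control tissue was measured in 4 libraries, with 3 CA1 control libraries in the same fit. The submitters' processing notes name kallisto, cutadapt, FastQC and DESeq2 with no version, and the genome build is not given in the sources used here. Transcript tables hold the estimated counts and TPM (transcripts scaled for length and library total) that the authors made with kallisto, per the file headers, for 58716 transcripts. A deposited table by gene gives estimated counts for 22485 symbols, which the authors rounded to whole numbers, since each lay within 0.5 of the summed transcripts, and 41 symbols cover more than 1 gene identifier. Reads of near-identical copies can be divided wrongly. How strand was treated is not given, so a gene and an antisense partner cannot be told apart.

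Counts were tested with edgeR 4.0.16 (R 4.3.3): filterByExpr on the 3 regions (minimum count 10, total 15), TMM, 1 mean per region, quasi-likelihood F test of CA3 minus DG with 4 residual degrees of freedom, and Benjamini-Hochberg adjustment over 12292 genes at 0.05. SEs come from the F statistic. CPM values are TMM-scaled. Alternatives used limma 3.58.1, DESeq2 1.42.0, other scalings and filters, and fits without each library. The fits without both CA3 replicate 1 and DG replicate 2 and with the replicate number as a block were chosen after seeing the data. The fit was tested before use on data simulated with a smaller spread than the one estimated here. It recovered 75% of 100 genes changed by a log2 fold of 2 and 6% of 100 changed by 1, with 6 false calls. Most changes of the smaller size were thus missed.

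Named genes were called genes with the 15 largest increases and the 15 largest decreases, provided that they averaged 5 CPM or more in the 4 libraries without overlap of the groups, then called members of 32 gene lists, and list members by level or known role. The members and lists were chosen with earlier results of these data known. Values of 2 against 2 libraries cannot give an exact permutation p below 0.333, so library measures were not tested. A count of 0 was set against 3 counts pooled over the group. Intervals cover counting error only, as PCR copies were not marked by molecular identifiers. Some genes are not reported here. Coordinates are from GENCODE M21 by gene identifier.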

Additional observations from a re-analysis of the deposited data

How the results depend on the processing

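The CA3 libraries (replicates 1 and 4) and the DG libraries (replicates 2 and 3) share no replicate number, and pairing is not given by the labels. A fit with the replicate number as a block, added after seeing the data, compares them only through CA1 libraries and has 1 residual degree of freedom. This replicate block fit of edgeR called 0 higher and 0 lower, with 765 genes at an unadjusted p under 0.05. Deviations from the region means correlated at 0.03 to 0.06 between libraries of the same number and at -0.11 to 0.11 between others. With 2 libraries each in CA3 and DG, the deviations of a pair mirror each other. These values therefore cannot show whether libraries were paired. Beside 77 genes higher and 55 lower, RLE scaling, upper-quartile scaling, a filter of 5 CPM, and a minimum log2 change of 1 gave counts within 1.5 times of these. DESeq2 called 227 higher and 180 lower, and included all 132 genes. Without a low-count filter 355 were higher and 320 lower. The 4 CA3 and DG libraries alone gave 25 and 29. With limma on log2(TPM + 1) 45 were higher and 24 lower, and on log2(TPM + 0.1) 37 and 15. Without both CA3 replicate 1 and DG replicate 2, chosen after seeing the data, 786 were higher and 632 lower, with 1 library per region. Leaving out 1 library gave 31 (without CA3 replicate 1) to 469 (without DG replicate 2) higher and 13 (without CA3 replicate 1) to 273 (without DG replicate 2) lower. Without CA3 replicate 4 the counts were 84 and 19, without DG replicate 3 37 and 23, without CA1 replicate 1 41 and 32, and without CA1 replicate 3 47 and 33. In all 7 such fits, 20 genes were called higher and 6 lower. The cause of these shifts was not tested. None of the 56 called genes named by rule reversed its direction under any alternative. Their CA3 and DG libraries did not overlap, so fits that drop libraries or change the scaling or filter could hardly have reversed one. The main limits are 2 libraries per region from 1 animal, libraries whose markers depart from their labels, and the 1285654 counts of DG replicate 2.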
